A study of Arabidopsis thaliana with 4 samples.

Results

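AT4G30650 is an Arabidopsis thaliana gene of the RCI2 type, a family of small membrane proteins described as low-temperature and salt responsive. It was chosen for its rise in plants that express the cold-response transcription factor CBF2, so its own values are a description and carry no test. It is 1 gene of 13355 with a probe set that the platform annotation ties to exactly 1 gene. Its relatives were chosen by family and not by their values. The annotation holds a probe set for AT4G30660, the gene next to it, and none for AT3G05880 (RCI2A) or AT3G05890 (RCI2B). Of the other genes counted to the family here from background knowledge, AT2G24040, AT1G57550 and AT2G38905 have a probe set in it and AT4G28088 has none. The annotation does not list 8730 probe sets and ties 503 to several genes. A gene with no probe set here may still be on the array. Values are thus given for 5 of 8 RCI2 genes.

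RCI2 proteins are short and strongly hydrophobic, with a pair of predicted membrane-spanning stretches. They are related to the yeast plasma membrane protein PMP3, whose loss in yeast raises the membrane potential and makes cells sensitive to sodium. In Arabidopsis, RCI2A and RCI2B are known as genes induced by cold, drought, salt and abscisic acid, and plants without RCI2A accumulate more sodium under salt. CBF2 belongs to the CBF/DREB1 group of AP2/ERF transcription factors, which bind the CRT/DRE element in promoters of cold-regulated genes.

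RNA of whole plants was measured on Affymetrix ATH1 arrays, 1 array per sample. There were 2 samples of 35S::CBF2 plants, which carry CBF2 under the 35S promoter, active in most tissues, and 2 of wild type plants of the accession Ws-2. The labels give no accession for the 35S::CBF2 plants. All plants were 10 days old and grew on agar plates at 24 °C in continuous light, after 4 days of cold stratification at 4 °C. The treatment text of each group describes 4 plates with about 100 plants each, harvested one by one, but does not say which plates went to which array. One 35S::CBF2 title has the code E24 and the other E2, whereas the treatment text names E2 for both, so it is not settled whether these samples are 1 transgenic line. Both of these titles say Rep1. The E24 sample is called 35S::CBF2 replicate 1 here and the E2 sample 35S::CBF2 replicate 2, a number that its title does not give. Since nothing ties the arrays to separate cultures, the p-values cover the spread between samples, and this could be technical.

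The signals are MAS5 intensities on a linear scale, brought to a common mean on every array before deposit. Across tested probe sets the log2 signals correlated at 0.966 within each group and between 0.922 and 0.940 across groups, as a description over probe sets. The array 35S::CBF2 replicate 2 stood apart in its hybridisation spike-in controls, which had 1.91 times the wild type mean on it and 0.664 times on 35S::CBF2 replicate 1. The annotation ties no probe set to CBF2, so the transgene's own transcript was not checked. Of the genes fixed as tissue markers, 4 of 6 for leaf and 4 of 4 for root have a probe set in the annotation. These were present on all arrays. The summed signal of 4 leaf genes was 20556 and 17282 in 35S::CBF2 and 20261 and 19394 in wild type. That of 4 root genes was 1610 and 2309 in 35S::CBF2 and 2101 and 1690 in wild type. Most of the root sum was PYK10, with 1429 and 2046 in 35S::CBF2 and 1872 and 1473 in wild type. In whole plants a change in the share of cells of a type and a change in RNA per cell cannot be told apart.

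AT4G30650 had signals of 2189 and 2838 on the 35S::CBF2 arrays and of 168 and 301 on the wild type arrays. Both 35S::CBF2 arrays lay far above both wild type arrays. The geometric means were 2492 in 35S::CBF2 and 225 in wild type, an 11.1-fold rise. The log2 difference was 3.47 ± 0.25 (limma's moderated SE, n = 2 per group). That SE also draws on the spread of other probe sets. The SD of this gene's own log2 signals was 0.27 in 35S::CBF2 and 0.59 in wild type. Each pairing of a 35S::CBF2 array with a wild type array gave a rise, from 7.28-fold (35S::CBF2 replicate 1 over wild type replicate 2) to 16.9-fold (35S::CBF2 replicate 2 over wild type replicate 1). The transcript was also measured in wild type plants kept in the warm, since both wild type signals lay well above 14.5, the brightest value reached on any array by 27 probe sets for bacterial control genes. The fold is therefore a measured ratio and not a bound.

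The wild type arrays differed 1.79-fold in AT4G30650, a gap that only 4.09% of the tested probe sets matched or exceeded. The 35S::CBF2 arrays differed 1.30-fold, a gap matched or exceeded by 29.4%. The brighter of the 35S::CBF2 arrays for this gene, replicate 2, was also the one with the brighter spike-ins, and the part of this in the gap was not tested. Without 35S::CBF2 replicate 2 the log2 difference of AT4G30650 was 3.28, and without 35S::CBF2 replicate 1 it was 3.66. Leaving out wild type replicate 1 gave 3.05, and leaving out wild type replicate 2 gave 3.89.

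**Figure D1:**
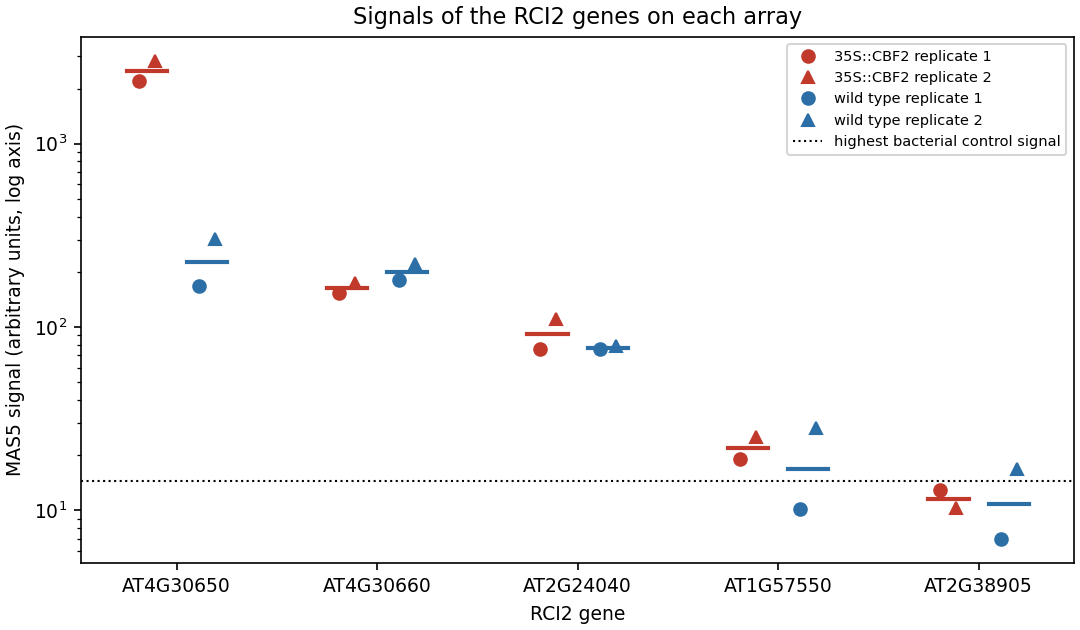
MAS5 signal on a log axis for the 5 RCI2 genes with a probe set. Each point is 1 array, circles are replicate 1 and triangles replicate 2, bars are geometric means of the 2 arrays of a group, and the dotted line marks 14.5, the highest bacterial control signal. The groups are widely apart for AT4G30650, while AT4G30660 has 154 and 174 in 35S::CBF2 and 181 and 220 in wild type.

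AT4G30660, the RCI2 gene directly next to AT4G30650 on the chromosome, had signals of 154 and 174 on the 35S::CBF2 arrays and of 181 and 220 on the wild type arrays. Both 35S::CBF2 arrays lay slightly below both wild type arrays, opposite in direction to AT4G30650. The log2 difference of -0.28 ± 0.19 (SE, n = 2 per group) did not pass (limma, adjusted p = 0.628). Its 95% interval ran from -0.71 to 0.14, or from 0.613 to 1.10 times the wild type level. No overlap in the lower direction was common, with 23.9% of all tested probe sets lying so.

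The 2 adjacent genes were also set against each other within each array, where a scaling factor of the whole array cancels. The signal of AT4G30650 over that of AT4G30660 was 14.2 and 16.3 on the 35S::CBF2 arrays and 0.931 and 1.37 on the wild type arrays. These ratios depend on the probes, so their change between arrays is what can be read. That change was 13.5-fold, with 10.4-fold and 17.5-fold as the lowest and highest of the pairings of arrays. On the log2 scale the difference of AT4G30650 exceeded that of AT4G30660 by 3.75, a description, since AT4G30650 was chosen for its rise. The names of both probe sets carry no mark for probes shared between genes; cross-hybridisation between the transcripts was not tested.

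AT2G24040 had signals of 75.8 and 110 in 35S::CBF2 and of 75.7 and 78.5 in wild type. The groups overlapped, with 1 of the 35S::CBF2 arrays level with wild type. The log2 difference was 0.25 ± 0.24 (SE, n = 2 per group) and did not pass (limma, adjusted p = 0.776), with a 95% interval of -0.28 to 0.78. Without 35S::CBF2 replicate 2 it was -0.024, so its sign rests on that array.

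The remaining relatives were dim. AT1G57550 had signals of 19.0 and 25.1 in 35S::CBF2 and of 10.1 and 28.1 in wild type. AT2G38905 had 13.0 and 10.3 in 35S::CBF2 and 6.98 and 16.8 in wild type. The groups overlapped in both genes, and both lay under the filter on low signals (a geometric mean of 24.8 over the 4 arrays), so neither was tested in the comparison as reported. With no filter AT1G57550 had a log2 difference of 0.37 ± 0.61 (SE; limma, adjusted p = 0.920), with a 95% interval of -1.02 to 1.77. That of AT2G38905 was 0.096 ± 0.72 (SE; limma, adjusted p = 0.988), with an interval of -1.54 to 1.73.

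Of the 4 relatives with a probe set, 2 passed the filter and 0 passed the test with limma, and 0 had an unadjusted p under 0.05. Over the whole array 458 of 13647 tested probe sets, or 3.36%, passed in either direction, so 0 of 2 lies near the background and says nothing particular about the family. Of the 5 RCI2 genes, AT4G30650 (higher) and AT4G30660 (lower) had groups that did not overlap, which held for 41.7% of all tested probe sets in either direction.

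Among all 13647 tested probe sets AT4G30650 had the 24th largest rise, and among the 7277 tested probe sets of 1 gene the 12th. Higher probe sets that passed numbered 288, or 2.11%, and AT4G30650 was chosen from among these. The median log2 difference of all tested probe sets was -0.036. Of the 23 probe sets with a larger rise, 16 had both wild type signals above 14.5, as AT4G30650 had, and 4 had both below it. Its rank lay between 18 and 52 over the alternatives, the latter with no filter, which admits dim probe sets.

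**Figure D2:**
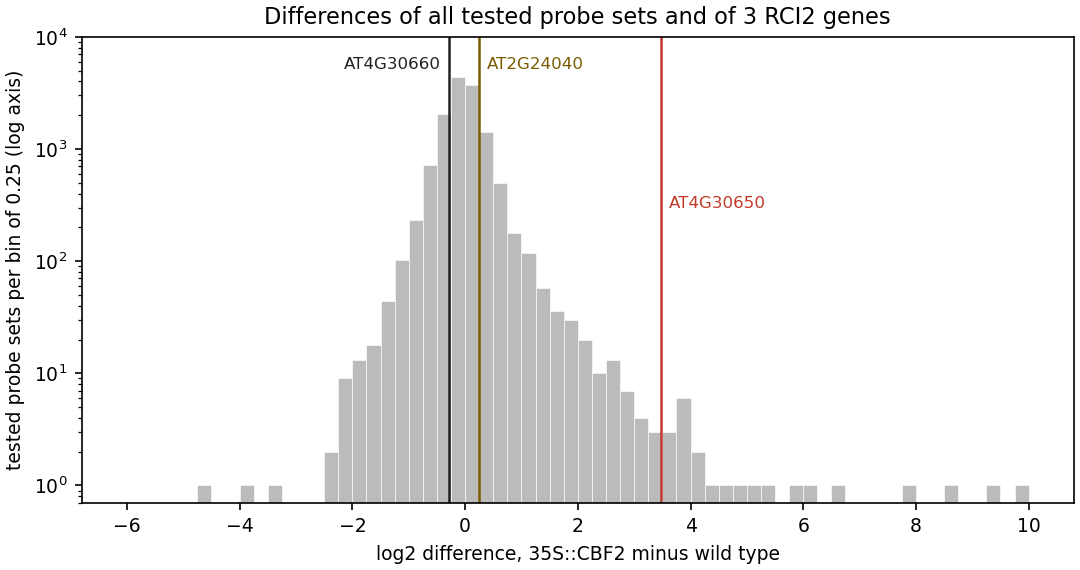
Number of tested probe sets (log axis) by log2 difference, 35S::CBF2 minus wild type, in bins of 0.25. Vertical lines mark AT4G30650 at 3.47, in the thin upper tail, and its relatives AT4G30660 at -0.28 and AT2G24040 at 0.25, inside the bulk of the distribution.

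The genes around AT4G30650 were examined next, taking 10 genes on each side in the gene order of the reference table. Of these 20 neighbours 9 have a probe set of 1 gene, 6 passed the filter, and 0 passed the test (limma, adjusted p from 0.515 to 0.985; 0 at an unadjusted p under 0.05). Their log2 differences ran from -0.68 to 0.39 with a median of 0.0056. With 3.36% called over the whole array, 0 of 6 is near the background. No 95% interval among them reached above a 2.03-fold rise.

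On the side away from AT4G30660 the closest tested gene, AT4G30630, had signals of 43.1 and 59.2 in 35S::CBF2 and of 41.5 and 36.1 in wild type. Next to it, AT4G30620 had 105 and 122 in 35S::CBF2 and 98.7 and 88.2 in wild type. In both genes the groups did not overlap, which held in the higher direction for 17.8% of all tested probe sets. Their log2 differences of 0.39 ± 0.29 and 0.28 ± 0.21 (SE) did not pass. AT4G30600, farther out, had 488 and 542 in 35S::CBF2 and 493 and 551 in wild type.

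Beyond AT4G30660, AT4G30670 had signals of 28.6 and 70.4 in 35S::CBF2 and of 66.8 and 77.0 in wild type. The array 35S::CBF2 replicate 1 alone was low, and the log2 difference of -0.68 ± 0.37 (SE) did not pass. It rested on that array, with -0.027 without 35S::CBF2 replicate 1 and -1.33 without 35S::CBF2 replicate 2 (limma, adjusted p = 0.0631; 0.0631 to 0.982 over all alternatives). AT4G30690 had 172 and 124 in 35S::CBF2 and 167 and 122 in wild type, so the spread within each group exceeded the difference between them. The untested neighbours were dim. AT4G30640, directly beside AT4G30650, had 8.4 and 15.7 in 35S::CBF2 and 8.3 and 6.11 in wild type, AT4G30680 lay between 4.59 and 15.7 on all arrays, and AT4G30570 between 0.39 and 7.95.

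**Figure D3:**
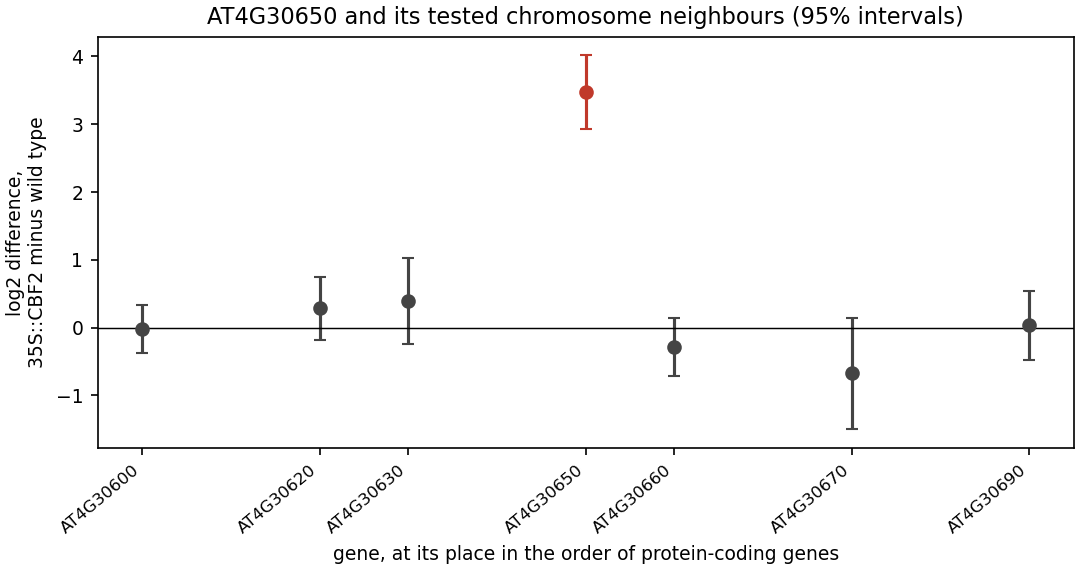
Log2 difference, 35S::CBF2 minus wild type, of AT4G30650 and its 6 tested neighbours, placed by their order among protein-coding genes, with limma's 95% intervals (n = 2 arrays per group). AT4G30650, at 3.47, was chosen for its rise, so its place above the neighbours and its interval are a description and no test. The neighbours lie between -0.68 and 0.39 with intervals that include 0.

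For scale, adjacent genes were compared across the genome. There were 2164 pairs of adjacent protein-coding genes with both members tested, and both members passed as higher in 5 of them. Of the 68 higher genes with a tested neighbour at their side, 10 had a higher neighbour (14.7%). Among all tested probe sets of 1 gene 1.94% were higher. The first share counts a neighbour on either side and the second counts single probe sets, so they are unlike measures. The pairs overlap and are given as a description. AT4G30650 belongs to the 58 higher genes without a higher tested neighbour. Of the genes at its sides only AT4G30660 was tested, since AT4G30640 lay under the filter.

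The transcripts whose pattern was most like that of AT4G30650 were found by the root mean square distance between log2 signals centred on each probe set's mean over the 4 arrays. The distance was computed for the 7276 other tested probe sets of 1 gene and had a median of 1.79. The 8 closest lay between 0.346 and 0.496, with the next at 0.510, so they form no group apart. All were chosen by the same arrays and hence had to be higher in 35S::CBF2, and they are described without a test.

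The closest was AT1G68500, with signals of 195 and 402 in 35S::CBF2 and of 12.4 and 27.6 in wild type. On the 35S::CBF2 arrays it was higher on replicate 2, as AT4G30650 was, and by more. The second was UGT72B3, of the UDP-glycosyltransferases that attach sugars to small molecules, with 164 and 199 in 35S::CBF2 and 22.9 and 21.8 in wild type. AT1G48100 had 567 and 614 in 35S::CBF2 and 37.2 and 36.9 in wild type, closely matched arrays within each group.

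AT2G23120 had signals of 3366 and 4028 in 35S::CBF2 and of 422 and 333 in wild type, and a log2 difference of 3.30 ± 0.17 (SE). AT5G24570 had 976 and 1200 in 35S::CBF2 and 168 and 181 in wild type, with a log2 difference of 2.64 ± 0.17 (SE). Both, like AT4G30650, were well above the bacterial controls in wild type.

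SWEET10, of the SWEET family of sugar transporters, had 180 and 119 in 35S::CBF2 and 6.42 and 13.6 in wild type. It was the only one of the 8 that was lower on 35S::CBF2 replicate 2 than on replicate 1. AT3G28220 had 55.6 and 69.2 in 35S::CBF2 and 8.61 and 12.2 in wild type, and AT3G25870 had 72.9 and 77.9 in 35S::CBF2 and 11.4 and 13.8 in wild type. In these 3 genes both wild type signals lay below 14.5, so their rises are bounds: at least 10.1-fold for SWEET10, at least 4.28-fold for AT3G28220 and at least 5.20-fold for AT3G25870.

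Likeness over 4 arrays in 2 groups resolves little beyond the rise itself. Pearson's r with AT4G30650 was between 0.971 and 0.999 for the 8 genes, and 180 of the 7276 probe sets had an r at least as high as the lowest of these. Ranked by r in place of distance, only AT3G28220 of the 8 stayed among the closest 8. With no filter 0 of the 8 stayed, and with an array left out 3 to 5 did.

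**Figure D4:**
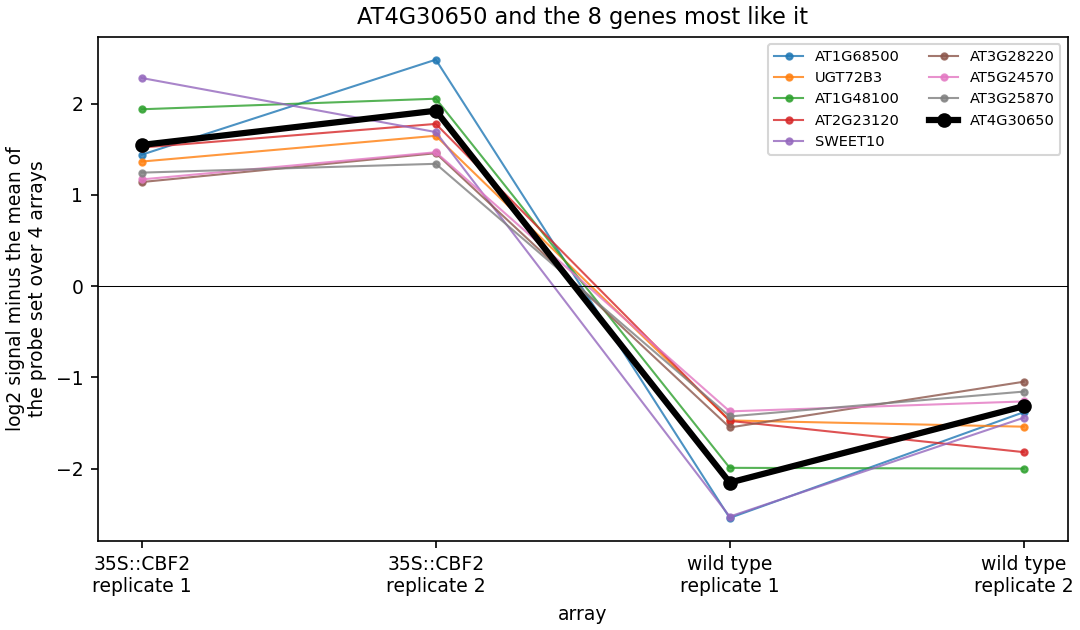
Log2 signal minus each probe set's mean over the 4 arrays, for AT4G30650 (thick black line) and the 8 genes most like it, by array; lines only join the values of a gene. All lie above 0 on the 35S::CBF2 arrays and below 0 on the wild type arrays, with AT4G30650 at 1.55 and 1.92 in 35S::CBF2 and at -2.15 and -1.32 in wild type; SWEET10, AT3G28220 and AT3G25870 were below 14.5 on both wild type arrays, so their order there cannot be read.

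AT4G30650 was also set beside known CBF-regulated cold genes, a list of 18 of which the annotation ties 5 to a probe set of 1 gene. The others were not examined. In it 4 of 5 passed as higher, with a median log2 difference of 5.91 over the 5, beside 2.11% called higher and a median of -0.036 over all tested probe sets. COR15A, which encodes a cold-protective protein of the chloroplast, had both wild type signals below 14.5 and was at least 586-fold higher. Its relative COR15B (log2 difference 5.91 ± 0.17, SE) also exceeded AT4G30650. So did LTI30 (6.70 ± 0.16), for a dehydrin, a hydrophilic protein made on water loss. COR47, a second dehydrin gene, had a smaller difference (2.50 ± 0.15), and STZ, for a zinc finger protein, had 0.92 ± 0.38 and did not pass (limma, adjusted p = 0.310). AT4G30650 at 3.47 thus fell between COR47 and COR15B in the size of its log2 difference.

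Other lists fixed around the function of RCI2 proteins were barely covered. Of 10 genes for COR413 and HVA22 proteins, other small membrane proteins linked to cold or abscisic acid, only HVA22C has a probe set in the annotation. It had 210 and 249 in 35S::CBF2 and 230 and 165 in wild type, with overlapping groups (log2 difference 0.23 ± 0.21, SE; limma, adjusted p = 0.757). None of the 14 genes listed for sodium, potassium and proton transport, and none of the 13 for plasma membrane aquaporins, is tied to a probe set there, so 0 of these were tested.

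Of 6 commonly used reference genes the annotation ties 3 to a probe set of 1 gene, and 0 of these passed. The log2 differences of PEX4, AT4G34270 and AT2G28390 were 0.14, 0.061 and -0.019 (limma, smallest adjusted p = 0.845). Relative to their mean on each array, AT4G30650 stood at 13.3 and 19.4 in 35S::CBF2 and at 1.08 and 2.13 in wild type, a 10.6-fold rise. The 4 leaf genes had log2 differences between -0.12 and -0.025 and the 4 root genes between -0.26 and 0.043, and 0 of these 8 passed (limma; smallest adjusted p = 0.835).

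**Figure D5:**
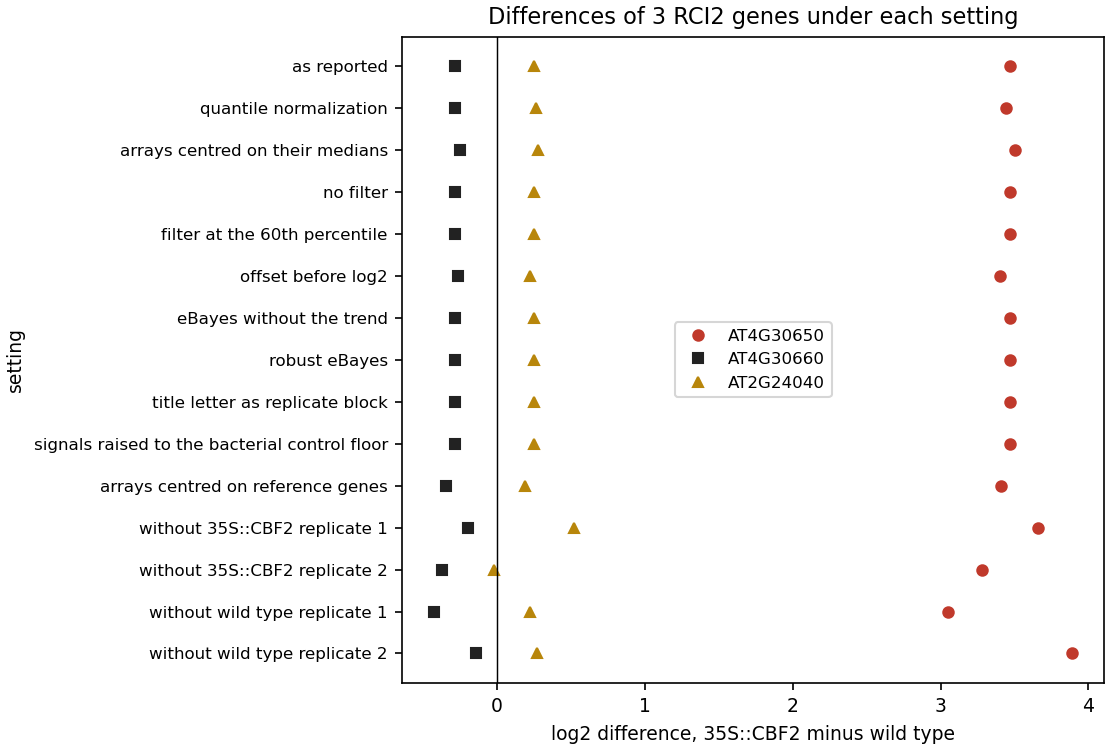
Log2 difference, 35S::CBF2 minus wild type, of 3 RCI2 genes under the reported setting and each alternative. AT4G30650 lies between 3.05 and 3.89, AT4G30660 between -0.42 and -0.14, and AT2G24040 between -0.024 and 0.52, with the value below 0 coming from leaving out 35S::CBF2 replicate 2.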

How the data were processed

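The authors deposited linear signal intensity, 1 value per probe set and array. Per the submitters' processing notes the tool was MAS5, without a version. The mean after trimming 2% at each end was 100.0 on every array, so no further scaling was applied. No value column was left unused (0). Of 22810 probe sets 64 controls were left out. Names came from a 2016 platform annotation and, by gene identifier, from the RefSeq table of assembly TAIR10.1, which also gave the gene order. The annotation ties 13513 probe sets to 1 gene and 503 to several; 8730 are not listed, and 13436 of the first matched the table.

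Signals were taken to log2. Probe sets with a mean above the 40th percentile (13647) were tested using limma 3.58.1 under R 4.3.3 (lmFit, eBayes with trend), two-sided, Benjamini-Hochberg over all of them, threshold 0.05. Differences are 35S::CBF2 minus wild type. Where neither array of the dimmer group reached 14.5, folds are bounds against that value. Only 2 arrays per group limit the precision. The procedure was also run on simulated data, with normal errors whose spreads came from the same fit. Such data cannot check how it handles other kinds of noise. No sequences were used here, so the planned promoter motif search and protein comparison were not run.

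The gene, the lists and the tests were chosen with earlier results of these data known. Genes named are AT4G30650, the RCI2 genes and neighbours with a probe set, the 8 genes most like it, and up to 6 tested members of each list (4 where there are more). The lists were the RCI2 family, CBF-regulated cold genes, COR413 and HVA22 genes, ion transport, aquaporins, reference genes, and leaf, root and seed markers (0 of 3 seed markers have a probe set in the annotation). Alternatives were other scalings, filters, an offset before the log, other settings of eBayes, a block, and leaving out each array.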

Additional observations from a re-analysis of the deposited data

Results flagged for a closer look

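On 35S::CBF2 replicate 2 the spike-ins for hybridisation, which entered no comparison, were 1.91 times as bright as the mean of wild type (9 probe sets, geometric mean), above both wild type arrays at 0.986 and 1.01. The same array had the higher AT4G30650 signal of the 35S::CBF2 arrays, 2838 beside 2189; without it the log2 difference of AT4G30650 was 3.28.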

How the results depend on the processing

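Of the 14 alternatives, 6 cannot move a difference of AT4G30650 (both filters, both settings of eBayes, the title letter block and raising signals to 14.5). In the other 8 its log2 difference (3.47) ran from 3.05 to 3.89, both from leaving out a wild type array. Leaving out 1 of 2 arrays moves a difference by an amount that their gap fixes. Such settings are thus no independent check among the 8. AT4G30660 kept its direction in these 8 and stayed uncalled in all 14 (adjusted p from 0.563 to 0.950). AT2G24040 stayed uncalled in all 14 (adjusted p from 0.394 to 0.994) and turned to -0.024 without 35S::CBF2 replicate 2, with 0.52 as the highest value with an array left out. No RCI2 relative and no neighbour passed in any alternative. Neighbours near 0 changed sign: AT4G30690 (0.031) to -0.030 with arrays centred on reference genes and -0.20 to 0.27 with an array left out, and AT4G30600 (-0.020) to 0.011 with arrays centred on medians and -0.100 to 0.061 with an array left out.

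Probe sets called (458) were 205 without the trend and 270 to 605 on leaving out single arrays; the title letter as a block gave 661. Higher ones (288) were 157 without the trend and 178 to 334 on leaving out single arrays. Lower ones (170) were 48 without the trend, 96 with no filter, 283 with arrays centred on reference genes, 281 under the title letter as replicate block, and 92 to 271 on leaving out single arrays. Of the 8 genes most like AT4G30650, 0 remained with no filter, 5 with the filter at the 60th percentile, 5 with signals raised to 14.5, 1 by Pearson's r, and 3 to 5 on leaving out single arrays. No cause of these shifts was tested. Raising signals to 14.5 and centring on reference genes were chosen after seeing the data. With just 1 replicate number common to both groups, numbers gave no pairs; the letters of the titles, whose meaning is not given, served as the replicate block (correlation of deviations of same-letter arrays 0.072). This block is balanced, so it changes errors and calls but no difference. With 1 array left out, the lone array was assumed to vary like the other group.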
